A study of Mus musculus with 10 samples.

Results

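A set of 10 transcription factor genes that mark or build the lung mesenchyme were examined on the microarrays of wild-type (WT) mouse lungs and mouse lung squamous cell carcinomas (SCC). They were the T-box genes Tbx2, Tbx3, Tbx4 and Tbx5, the forkhead genes Foxf1 and Foxf2, the basic helix-loop-helix gene Tcf21, the homeobox gene Meox2, the zinc finger gene Gata5 and the mesothelial gene Wt1. The members were chosen by name, with earlier results of these data known, and they were 10 of the 19096 genes with a probe that could be paired with a symbol. Where several probes measured a gene, the probe with the highest mean over the 10 arrays represented it.

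The arrays compared 5 whole lungs with 5 whole lung tumours, 1 array per sample, to ask which genes differ once a squamous tumour has formed without the kinase Lkb1. WT mice carried floxed Lkb1 (Lkb1f/f), SCC mice carried the same floxed alleles with CCSPiCre (CCSPiCreLkb1f/f), and all were of strain B6.129 and aged 13 months. CCSPiCre is a Cre recombinase driven by the club cell secretory protein promoter, so the deletion was directed to airway epithelium and not to the mesenchymal cells in which these factors are best known. The 10 samples are labelled as separate replicates, and nothing in the labels says that each came from a separate mouse, so that p-values measure the spread between these samples.

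The mesenchyme of the lung holds the fibroblasts, smooth muscle and pericytes around the airways and alveoli, and the mesothelium covers its surface. During lung development T-box and forkhead factors act in this tissue downstream of, and together with, hedgehog, FGF, WNT and BMP signals exchanged with the epithelium. Tcf21 marks lipofibroblasts, Tbx4 marks mesenchyme specific to the lung, and Wt1 marks mesothelial cells.

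A pair of SCC arrays stood apart from the rest. On SCC replicate 5, 90.2% of probes were well above background and the median processed signal was 263, against 71.0% to 74.5% and 125 to 180 on the other 9 arrays. On SCC replicate 2, the mean log2 intensity of 15 squamous epithelial markers was 10.66, between the 5.36 to 5.75 of the WT arrays and the 14.35 to 14.70 of the other SCC arrays. Between the groups, 14 of the 15 squamous markers were called higher in SCC, with a median difference of 8.31, and the basal keratin Krt5 lay between 15.60 and 17.70 in SCC against 5.29 to 6.63 in WT. On SCC replicate 2, Krt5 was the lowest of the tumours, Krt6b was at 8.34 where the other tumours had 14.09 to 14.92, and the cornified envelope gene Sprr1b, at 1.86, lay within its WT range. The alveolar markers Sftpc and Sftpa1 were bright in both groups, 18.80 on every WT array and 18.45 to 18.80 in SCC for Sftpc, and 17.21 to 17.40 against 16.38 to 16.70 for Sftpa1. Sftpc overlapped between the groups, but it had the same value on all WT arrays and on SCC replicates 1 and 2. Quantile normalization gives such values to probes of equal rank, so the overlap does not show an equal level. Sftpa1 was lower on every SCC array, with a mean difference of -0.74 (limma adjusted p = 0.000123). Whether SCC replicate 2 held less squamous and more other lung tissue than the other tumours was not tested, and its values are to be read with these markers beside them.

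All 10 factors were called lower in SCC. A call here means a difference of 2-fold or more with a limma adjusted p under 0.05. Over all 15586 tested genes, 13.4% were called lower and 11.6% higher. The factors were chosen with earlier results of these data known, so setting their counts beside the shares of all genes is no test. The median difference of the 10 factors was -2.37, on the log2 scale as SCC minus WT, while that of all tested genes was -0.04. In 9 of the 10 genes every SCC array lay below every WT array, which was so for 22.5% of all tested genes. The exception was Gata5. Ranked from the most negative difference among all tested genes, Tcf21 stood at place 131 and Tbx3 at 154, and the smallest difference, that of Tbx2, stood at 1148. Wt1 stood at 34 and Foxf1 at 195, but these places rest on dim signals in SCC: with normexp background correction Wt1, at -1.64, and Foxf1, at -1.61, lay behind Tcf21 at -3.13, Tbx3 at -3.12, Meox2 at -2.20, Foxf2 at -2.16, Tbx4 at -1.68 and Tbx5 at -1.68. Without SCC replicates 2 and 5, 10 of 10 remained called. In RNA from whole tissue, fewer cells that express a gene and less RNA per cell cannot be told apart.

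**Figure D1:**
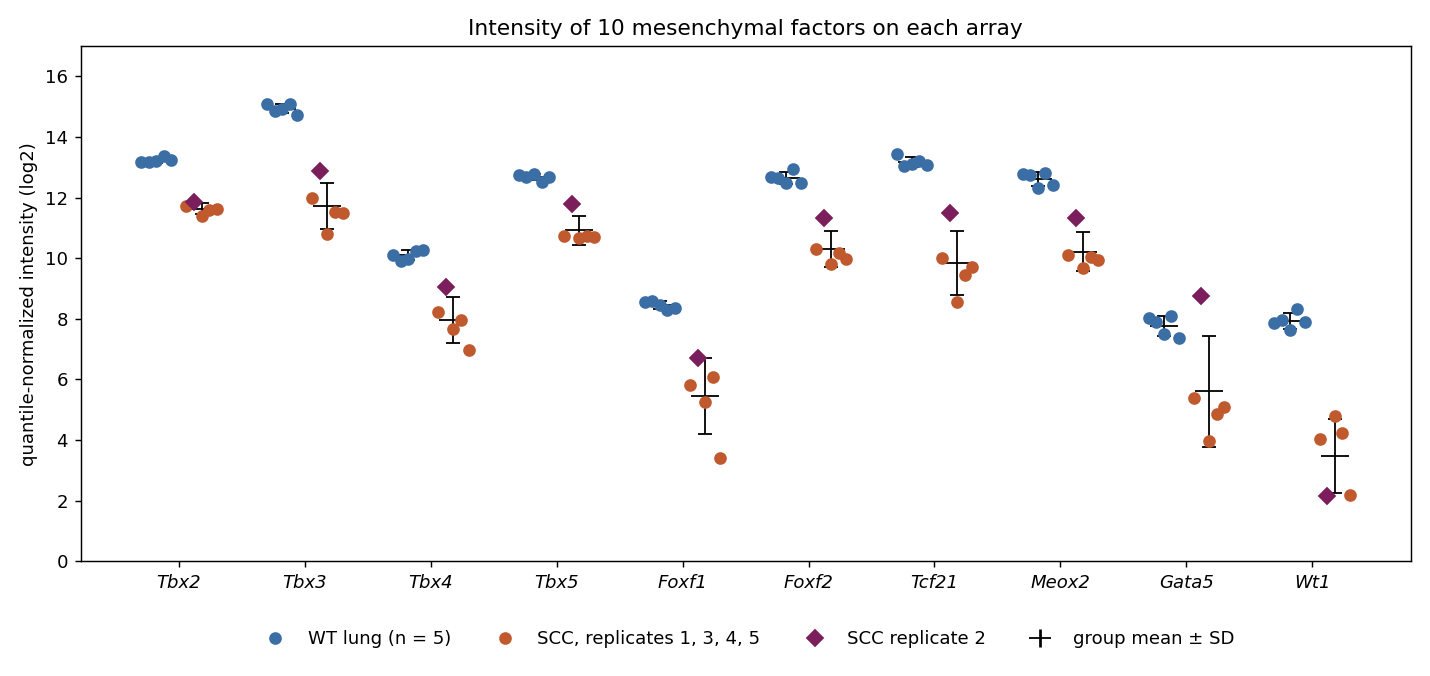
Quantile-normalized intensity (log2) of the 10 factors on each of the 5 WT arrays (blue) and 5 SCC arrays (orange, with SCC replicate 2 as a purple diamond), and bars giving the group mean ± SD. The WT points are tight and the SCC points lie lower, SCC replicate 2 is the highest SCC array for every gene but Wt1, whose probe was not well above background there, and for Gata5 it lies above all WT arrays. Heights of different genes are not comparable, since each probe has its own response.

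The T-box genes encode DNA-binding factors that act in the lung bud, its airways and its mesenchyme. Tbx2, which keeps mesenchymal cells dividing in the growing lung, had intensities (log2) of 13.17, 13.17, 13.20, 13.36 and 13.25 in WT replicates 1 to 5, and of 11.72, 11.86, 11.39, 11.58 and 11.61 in SCC replicates 1 to 5. The groups were separated by a gap of 1.31, and neither of them spread by more than 0.47. Tbx2 fell by 1.60 ± 0.10 (SE, n = 5 per group, limma adjusted p = 4.49e-06), a fold of 3.03, with the smallest standard error of the 10. The exact permutation test gave p = 0.00794, the smallest that 5 against 5 arrays allow, for each of the 9 genes whose groups did not overlap.

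Tbx3, a close relative of Tbx2 with a shared role in lung mesenchyme, had WT intensities of 15.07, 14.86, 14.93, 15.08 and 14.71 and SCC intensities of 11.97, 12.86, 10.81, 11.52 and 11.48. Every SCC array was lower than every WT array, and SCC replicate 2 was the highest of the tumours. Tbx3 fell by 3.20 ± 0.32 (SE, n = 5 per group, limma adjusted p = 4.67e-05), a fold of 9.21. Within arrays, Tbx2 thus lost less signal than Tbx3, by 1.60 (95% confidence interval 0.98 to 2.23), and this difference between the paralogues passed the exact permutation test (p = 0.00794, adjusted to 0.0238 over 3 pairs of paralogues).

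Tbx4 and Tbx5 are required together for the growth and branching of the lung bud, and Tbx4 remains a marker of lung fibroblasts. Tbx4 read 10.11, 9.90, 9.97, 10.24 and 10.28 in WT and 8.23, 9.05, 7.68, 7.96 and 6.97 in SCC. The groups did not overlap, and SCC replicate 5 was the lowest array. Tbx4 fell by 2.12 ± 0.32 (SE, n = 5 per group, limma adjusted p = 0.000515). A dimmer Tbx4 probe fell by 1.54 ± 0.13 (SE, n = 5 per group, limma adjusted p = 2.05e-05), but it was well above background on 1 of the 5 SCC arrays, so the size is not settled.

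Tbx5, which also patterns the heart, read 12.75, 12.68, 12.79, 12.51 and 12.67 in WT and 10.73, 11.77, 10.66, 10.73 and 10.71 in SCC. SCC replicates 1, 3, 4 and 5 lay within 0.07 of each other and SCC replicate 2 lay 1.06 above their mean, still below every WT array. Tbx5 fell by 1.76 ± 0.21 (SE, n = 5 per group, limma adjusted p = 0.000118). The dimmer probe of Tbx5 gave a difference of only -0.13 ± 0.54 (SE, n = 5 per group, limma adjusted p = 0.861), with a 95% confidence interval of -1.33 to 1.08. That probe averaged 5.62 in WT, was well above background on 3 of the 5 SCC arrays and was brightest on SCC replicate 5, so the call for Tbx5 rests on its brighter probe. Between Tbx4 and Tbx5 the relative change within arrays was -0.36 (95% confidence interval -0.91 to 0.19, exact permutation p = 0.151, also after adjustment over the 3 pairs).

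In the RefSeq annotation the 4 genes form 2 neighbouring pairs of protein-coding genes, Tbx2 beside Tbx4 and Tbx3 beside Tbx5, and each pair fell. The outer coding neighbours of the pairs were not called lower. Bcas3, beside Tbx2, differed by -0.37, and Med13l and Rbm19, on either side of Tbx3 and Tbx5, by 0.07 and 0.05. Brip1, a DNA repair helicase gene beside Tbx4, was called higher by 1.18. These neighbours were looked up after the members' values were known.

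Foxf1 is a target of hedgehog signalling in lung mesenchyme and is also expressed in lung endothelium. Its intensities were 8.56, 8.59, 8.47, 8.29 and 8.36 in WT and 5.81, 6.71, 5.27, 6.09 and 3.41 in SCC. No SCC array reached the WT range, and the tumours spread over 3.29 against 0.30 among the WT lungs. Foxf1 fell by 3.00 ± 0.51 (SE, n = 5 per group, limma adjusted p = 0.00108), a fold of 7.98. The lowest value, 3.41, was on SCC replicate 5, where signals well above background reached further down than on the other tumours. Without that array the Foxf1 difference was -2.60 ± 0.26 (SE). With normexp background correction of the raw signals (offset 50) Foxf1 fell by 1.61.

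Foxf2, the second forkhead gene of this mesenchyme, read 12.69, 12.63, 12.48, 12.93 and 12.47 in WT and 10.29, 11.33, 9.79, 10.17 and 9.96 in SCC. Its groups were separated by a gap of 1.14, with SCC replicate 2 nearest to the WT lungs. Foxf2 fell by 2.33 ± 0.26 (SE, n = 5 per group, limma adjusted p = 9.09e-05). Foxf1 and Foxf2 had a relative change within arrays of -0.67 (95% confidence interval -1.70 to 0.37, exact permutation p = 0.135, adjusted to 0.151 over the 3 pairs), so that a difference between them was not shown, nor its absence.

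Foxf2 lies between Foxq1 and Foxc1, other forkhead genes, and these neighbours moved the other way. Foxc1, a factor of vascular and skeletal mesenchyme, was between 10.37 and 10.79 in SCC against 8.47 to 9.13 in WT and rose by 1.75 ± 0.15 (SE, n = 5 per group, limma adjusted p = 1.81e-05). Foxq1, an epithelial forkhead gene that was named after its value was seen, was between 9.79 and 10.19 in SCC against 7.88 to 8.39 in WT and rose by 1.82 ± 0.12 (SE, n = 5 per group, limma adjusted p = 6.66e-06). Of the tested coding neighbours of the 10 factors that are reported here and are not factors of the set themselves, 4 were called higher (Brip1, Foxq1, Foxc1 and Slco4a1, the last beside Gata5) and 9 were not called.

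Tcf21, which directs fibroblast fates in lung, heart and kidney, fell the most among the factors well above background on every array. WT intensities were 13.44, 13.04, 13.10, 13.22 and 13.09, and SCC intensities were 10.01, 11.48, 8.56, 9.43 and 9.70. The WT lungs spanned 0.40 and the tumours 2.92, without overlap. Tcf21 fell by 3.34 ± 0.44 (SE, n = 5 per group, limma adjusted p = 0.000229), which left 9.88% of the WT level on the linear scale.

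Meox2, a homeobox factor of mesenchyme and of quiescent endothelium, read 12.79, 12.74, 12.31, 12.82 and 12.43 in WT and 10.10, 11.33, 9.68, 10.03 and 9.95 in SCC. SCC replicates 1, 3, 4 and 5 again lay close together, within 0.42, and SCC replicate 2 lay above them and below the WT lungs. Meox2 fell by 2.40 ± 0.28 (SE, n = 5 per group, limma adjusted p = 0.000117), and its dimmer probe fell by 2.43 ± 0.34 (SE, n = 5 per group, limma adjusted p = 0.000304).

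**Figure D2:**
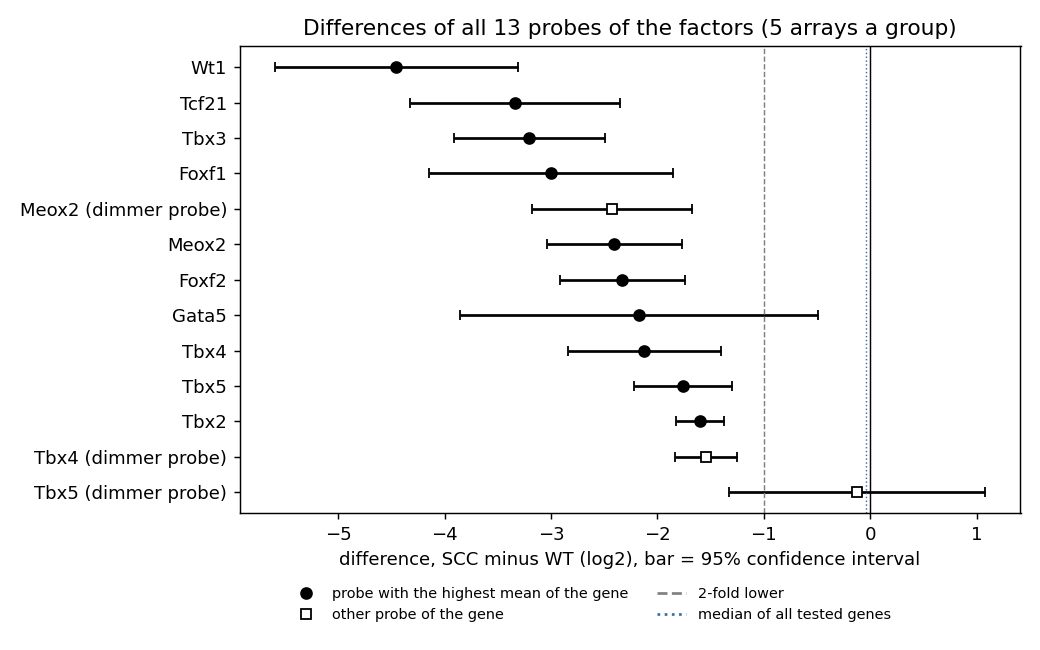
Difference between SCC and WT (log2, SCC minus WT) of all 13 probes of the 10 factors, with 95% confidence intervals from limma (5 arrays per group), filled circles for the probe that represents a gene and open squares for the other probe of Tbx4, Tbx5 and Meox2. Of the 13 probes 12 were called lower, and the dimmer Tbx5 probe, at -0.13, has an interval that spans 0.

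The promoters of Tcf21, Foxf2 and Meox2 are shown because of the size of the Tcf21 fall and because Foxf2 and Meox2 were each other's nearest gene in pattern over the 10 arrays. The windows cover 250 bases before and 50 bases after the RefSeq start of each gene (build GRCm38.p6), written 5′ to 3′ on the strand of the gene, and capitals mark the single motif match found in them. Tcf21 lies on the minus strand at chr10:22820094-22820393, Foxf2 on the plus strand at chr13:31625566-31625865 and Meox2 on the plus strand at chr12:37108290-37108589.
Tcf21: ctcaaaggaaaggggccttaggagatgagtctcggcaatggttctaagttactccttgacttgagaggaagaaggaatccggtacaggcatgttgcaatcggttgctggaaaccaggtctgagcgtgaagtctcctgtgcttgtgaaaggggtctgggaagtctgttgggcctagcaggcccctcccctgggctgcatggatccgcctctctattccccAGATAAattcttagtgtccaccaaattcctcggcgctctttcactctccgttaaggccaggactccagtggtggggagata
Foxf2: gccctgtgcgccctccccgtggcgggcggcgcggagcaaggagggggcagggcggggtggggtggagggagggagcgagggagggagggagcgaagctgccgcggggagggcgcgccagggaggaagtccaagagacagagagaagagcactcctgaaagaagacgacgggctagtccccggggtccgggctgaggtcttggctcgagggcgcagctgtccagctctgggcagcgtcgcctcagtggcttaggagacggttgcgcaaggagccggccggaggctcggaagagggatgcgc
Meox2: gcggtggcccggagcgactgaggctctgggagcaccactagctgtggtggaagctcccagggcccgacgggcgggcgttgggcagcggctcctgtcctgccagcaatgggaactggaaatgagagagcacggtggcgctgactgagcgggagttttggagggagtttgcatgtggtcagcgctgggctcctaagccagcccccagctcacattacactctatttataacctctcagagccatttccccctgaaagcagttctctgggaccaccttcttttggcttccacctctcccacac

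Both strands were searched for the T-box half-site AGGTGTG, the forkhead site GTAAACA and the GATA site AGATAA. Among the 32851 promoters of the table, 5.84% held the T-box half-site, 3.65% the forkhead site and 11.2% the GATA site. Of the 5 factors with a window in the table (Tbx4, Foxf2, Tcf21, Meox2 and Gata5), Tcf21 held 1 GATA match, starting 31 bases before the gene's start, and the other 4 held no match to any of the 3 motifs. The Foxf2 window had 27 CpG dinucleotides and 71.3% GC, and the Gata5 window 26 and 69.7%, while Meox2 had 12 and 60.7%, Tcf21 8 and 53.3%, and Tbx4 8 and 59.0%. The median over all promoters was 7 CpG dinucleotides and 52.7% GC. Foxf2 and Meox2, so alike on the arrays, had windows of different base composition.

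Gata5, a GATA factor of heart and endoderm development, was the factor whose groups overlapped. It read 8.03, 7.91, 7.50, 8.09 and 7.36 in WT and 5.37, 8.74, 3.99, 4.86 and 5.09 in SCC. SCC replicate 2, at 8.74, was higher than every WT lung, and the other 4 tumours were lower than every WT lung. The difference was -2.17 ± 0.75 (SE, n = 5 per group, limma adjusted p = 0.0366, exact permutation p = 0.0476). The call for Gata5 was lost with normexp background correction (-0.94, limma adjusted p = 0.0548) and in all fits that left out 1 array other than SCC replicate 2. Without SCC replicate 2 the difference was -2.93 (limma adjusted p = 2.95e-05).

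Of 5 other GATA genes tested, 3 were called lower and none higher, with a median difference of -1.61. Gata2, a factor of endothelial and blood cells, differed by -2.94, and Gata3, a factor of lymphocytes and epithelia, by -2.64, both with every SCC array below every WT array. Gata6, a factor of lung epithelium and of smooth muscle, read 12.80, 12.53, 12.60, 12.87 and 12.58 in WT and 10.66, 12.57, 10.52, 10.49 and 11.09 in SCC. SCC replicate 2 stood within the WT range for Gata6, where for Gata5 it was above it, and the other tumours did not reach the WT range, and the difference was -1.61 ± 0.36 (SE, n = 5 per group, limma adjusted p = 0.005). Gata2 and Gata3 kept their calls with slide as a fixed block, and Gata6 did not.

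Wt1, the zinc finger factor of mesothelium, was lower on every SCC array than on any WT array. It read 7.85, 7.97, 7.63, 8.34 and 7.88 in WT and 4.03, 2.15, 4.79, 4.24 and 2.20 in SCC. The gap between the groups was 2.84. Wt1 fell by 4.45 ± 0.51 (SE, n = 5 per group, limma adjusted p = 9.95e-05). The probe was well above background on all WT arrays and on 2 of the 5 SCC arrays (replicates 3 and 4), and with normexp background correction it fell by 1.64, less than Tcf21, Tbx3, Meox2, Foxf2, Tbx4 and Tbx5, so that neither the size of its change nor its place among the 10 genes is settled.

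On SCC replicate 2, the highest SCC array of the other 9 factors, Wt1 was not well above background. The same held there for Upk3b and Lrrn4, surface proteins that also mark mesothelium. Upk3b read 10.95, 10.81, 10.69, 11.22 and 11.19 in WT and 4.06, 1.93, 4.51, 5.98 and 2.48 in SCC. Lrrn4 read 10.03, 9.91, 9.81, 10.11 and 9.56 in WT and 4.46, 1.76, 5.07, 4.90 and 2.48 in SCC. Wt1 was also not well above background on SCC replicates 1 and 5, and Upk3b on replicate 1, so these readings have no order among themselves. On SCC replicate 5, Upk3b and Lrrn4 at 2.48 counted as well above background because such signals reached down to 2.14 on that array, while those of SCC replicates 1 to 4 ended between 3.96 and 4.31. Aldh1a2, the retinoic acid synthesis enzyme of lung mesenchyme and mesothelium, was also lowest on SCC replicate 2, at 8.65 against 9.26 to 9.64 on the other tumours. The order of the tumours was seen after the values were known and was not tested.

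**Figure D3:**
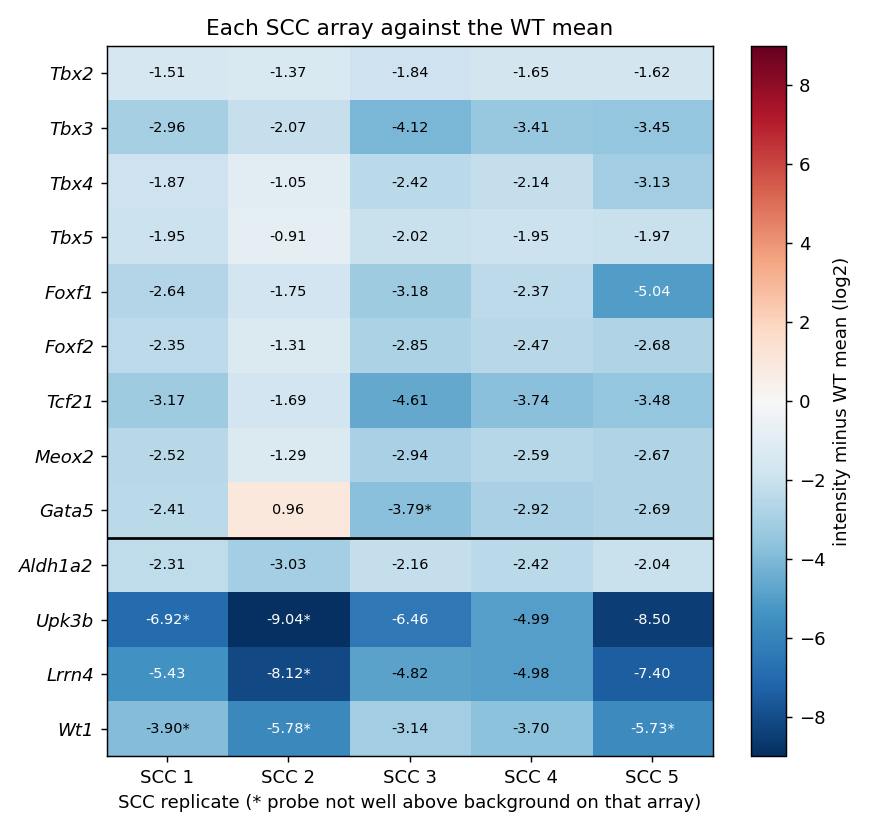
Intensity of each SCC array minus the WT mean (log2, colour scale and printed values) for 9 of the factors, above the black line, and for Aldh1a2, Upk3b, Lrrn4 and Wt1, below it. SCC replicate 2 is the least negative column above the line. The rows below it were chosen after their values were seen, and a star marks a probe not well above background on that array, as for Upk3b, Lrrn4 and Wt1 on SCC replicate 2, where the printed size is not settled. Of the 9 mesothelial markers called lower, the 6 that are not drawn had SCC replicate 2 as their highest tumour.

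Mesothelial markers as a list were 13 tested genes including Wt1, of which 9 were called lower and 2 higher, with a median difference of -2.27. Upk3b fell by 7.18 ± 0.67 (SE, n = 5 per group, limma adjusted p = 3.22e-05, 3 of 5 SCC arrays well above background) and Lrrn4 fell by 6.15 ± 0.62 (SE, n = 5 per group, limma adjusted p = 4.97e-05, 4 of 5 SCC arrays well above background). The sizes of both differences are not settled, since the SCC signals lay near background. Among the 9 that fell, Upk3b, Lrrn4 and Wt1 were not well above background on SCC replicate 2, which was the highest tumour for the other 6. Those 6 were Msln, Rspo1, Gpm6a, Efemp1, Podxl and Igfbp5. Krt19 and Cpe, called higher by 1.15 and 1.04, are also epithelial genes. Cpe kept its call with slide as a fixed block, and Krt19 did not. The 2 brightest markers of the list in WT were Efemp1 and Krt19. The log2 of the summed level of the list was 16.64 to 16.89 in WT and 15.97 to 16.72 in SCC. Krt19 was the brightest gene of the list in SCC, at 15.4 to 16.0 against 14.2 to 14.8 in WT. The summed level therefore need not follow the list median.

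The likeness of a gene to a factor was measured as the root mean square distance between their log2 values over the 10 arrays, each centred on its own mean, in a search of 14109 genes. The distance between Foxf2 and Meox2 was 0.10, and each was the other's nearest gene. Next to Foxf2 came Arhgef26 and Sgce, and next to Meox2 came Plscr2 and Arhgef26. For Tcf21 the nearest were Inmt, a methyltransferase gene that is abundant in alveolar fibroblasts, at 0.16, then Mapt and Prickle1. Prickle1, a gene of planar cell polarity, was also the nearest to Tbx3, at 0.14, ahead of Tspan7 and Phactr1. The distances describe size and shape together, and all 10 arrays entered them, so they are no test.

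The remaining factors had other neighbours in pattern. Tbx5 was nearest to the growth hormone receptor gene Ghr, at 0.07, followed by the endothelial receptor gene Tie1 and Sptbn1. Tbx2 was nearest to Rasal2, at 0.07, followed by Syde1 and Ccdc85b. Tbx4 was nearest to Hoxa2, Cyp2d9 and Tslp, and Foxf1 to Srpk3, Ecm2 and Tril. Gata5 and Wt1 were not searched, since they were not well above background on all 10 arrays.

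Other T-box genes did not share the one direction of the 4 members. Of 12 with a probe, 6 were tested, 2 were called lower and 1 higher, and the median difference was -0.84. Tbx18, a factor of epicardium and mural cells, fell by 3.53 ± 0.33 (SE, n = 5 per group, limma adjusted p = 3.31e-05), with 1 of 5 SCC arrays well above background, so the size is not settled. Tbx21, the factor of T helper and natural killer cells, fell by 1.94 ± 0.30 (SE, n = 5 per group, limma adjusted p = 0.000582). Tbx1 rose by 1.46 ± 0.38 (SE, n = 5 per group, limma adjusted p = 0.00969), with overlapping groups, 11.39 to 12.74 in WT and 12.61 to 14.63 in SCC, and its highest array was SCC replicate 2. With slide as a fixed block, only Tbx18 of these 3 was called.

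Of 23 other mesenchyme regulators tested, 12 were called lower, 1 (Foxc1) was called higher and 10 were not called, with a median difference of -1.12. Hoxb5, a homeobox gene that patterns lung mesenchyme, fell by 3.45 ± 0.36 (SE, n = 5 per group, limma adjusted p = 5.66e-05). Lef1, a nuclear effector of WNT signalling, fell by 2.45, and Zeb1, a repressor of epithelial genes, fell by 2.24. Among the 12 that fell, SCC replicate 2 was the highest tumour for 11. With normexp background correction the list had 8 calls, and with slide as a fixed block 6.

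The signals exchanged between epithelium and mesenchyme moved in part. Of 24 tested genes of hedgehog, FGF, WNT, BMP, PDGF and retinoid signalling, 8 were called lower, 1 was called higher and 15 were not called, with a median difference of -0.55. Wnt2, a mesenchymal ligand needed for lung specification, fell by 3.08 ± 0.32 (SE, n = 5 per group, limma adjusted p = 5.77e-05), and Fgf7 and Fgf10, mesenchymal ligands of the epithelial receptor Fgfr2, differed by -2.50 and -2.41. The 8 lower genes also include Aldh1a2, at -2.39, the receptor Pdgfra, at -2.10, and its ligand Pdgfa, at -1.10. Fgf7 and Pdgfra lost their calls with slide as a fixed block. Wnt7b, an epithelial ligand, rose by 2.83 ± 0.21 (SE, n = 5 per group, limma adjusted p = 9.71e-06). Hedgehog genes upstream of Foxf1 were not called: the ligand Shh differed by -0.19, its receptor and target Ptch1 by -0.41 and the target Gli1 by 0.28. Of the 8 noncoding or antisense neighbours of the factors that were listed, 2 had a probe, and none reached the level at which a probe was tested.

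Markers of the cells that could carry these factors moved unequally. Of 23 fibroblast markers, 11 were called lower, none was called higher and 12 were not called, with a median difference of -0.87. Itga8, Inmt and Col13a1, genes of alveolar fibroblasts, differed by -3.36, -3.18 and -2.70. The collagen genes Col1a1 and Col3a1 and the fibronectin gene Fn1 were above the WT range on every SCC array, with differences of the group means of 0.66, 0.53 and 0.64, under the 2-fold limit. The 2 brightest markers in WT were Inmt and Vim, and the log2 of the summed level of the list was 19.15 to 19.27 in WT and 17.70 to 18.37 in SCC. With slide as a fixed block, 1 of the 11, the matrix gene Postn, was called.

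Smooth muscle and pericyte markers had a smaller median difference than fibroblast markers, a contrast that was not tested. Of 15, 4 were called lower, 1 higher and 10 neither, with a median difference of -0.52. Trpc6 and Des differed by -1.52 and -1.32, while the pericyte gene Rgs5 rose by 2.33 ± 0.32 (SE, n = 5 per group, limma adjusted p = 0.000273). Des and Rgs5 kept their calls with slide as a fixed block, and Trpc6 did not. The 2 brightest were Tagln and Cnn1, and the log2 of the summed level was 15.57 to 16.00 in WT and 15.25 to 15.65 in SCC.

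Endothelial markers, which matter for Foxf1 and Meox2, fell almost as a list. Of 20, 18 were called lower and none higher, with a median difference of -2.11. Tmem100 differed by -4.02, Tek by -2.89 and Ramp2 by -2.85. Of these, Tek lost its call with slide as a fixed block. The 2 brightest were Ramp2 and Cldn5, and the log2 of the summed level was 19.07 to 19.29 in WT and 16.72 to 17.60 in SCC. Of 12 alveolar epithelial markers, 4 were called lower and none higher, with a median difference of -0.78. Clic5, Ager and Hopx differed by -2.50, -2.21 and -1.31. The 2 brightest were Sftpc and Sftpa1, and the log2 of the summed level was 19.92 to 20.02 in WT and 19.55 to 19.79 in SCC. That sum includes the Sftpc value that was the same on all WT arrays. Among the squamous markers, Sprr2d, Pkp1 and Krt6a were not well above background on any WT array, so only bounds can be given, at least 4441-fold, 2075-fold and 1498-fold higher in SCC (limma adjusted p = 7.84e-06, 2.07e-06 and 2.19e-05). Each bound sets the SCC mean against the mean over WT arrays of the lowest signal well above background. SCC replicate 2 was far below the other tumours for all 3 genes. Without it, a setting chosen after the data were seen, the bounds were at least 9165-fold, 3456-fold and 3135-fold, while on that array alone the genes lay 245-fold, 270-fold and 78.0-fold above the WT bound. The 2 brightest squamous markers in WT were Sfn and Perp.

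Cardiac muscle markers were measured because Tbx5 and Gata5 are also heart factors. Of 17 tested, 14 were called lower and none higher, with a median difference of -3.37. Sln, Csrp3 and Pln had measured differences of -6.90, -5.33 and -5.12, but were well above background on 3, 3 and 1 of the 5 SCC arrays, so their sizes and order are not settled. With slide as a fixed block, 1 of the 14, Ankrd1, was called. The 2 brightest were Myl7 and Tnnt2, and the log2 of the summed level was 14.60 to 17.71 in WT and 13.37 to 14.74 in SCC. Among the 5 WT lungs their mean log2 level varied by 3.26, Tbx5 by 0.28 and Gata5 by 0.74. Whether heart tissue carried part of the signal of these 2 factors was not tested. In the lists without a limma call for higher, 3 fibroblast markers, 1 alveolar marker (Aqp5) and 0 GATA, endothelial and cardiac genes were higher at an unadjusted p below 0.05, and the methods' t-test with Benjamini-Hochberg adjustment called 0 of them. The part of fibroblast, mesothelial, endothelial, cardiac and squamous cells in the differences of the 10 factors was not tested.

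**Figure D4:**
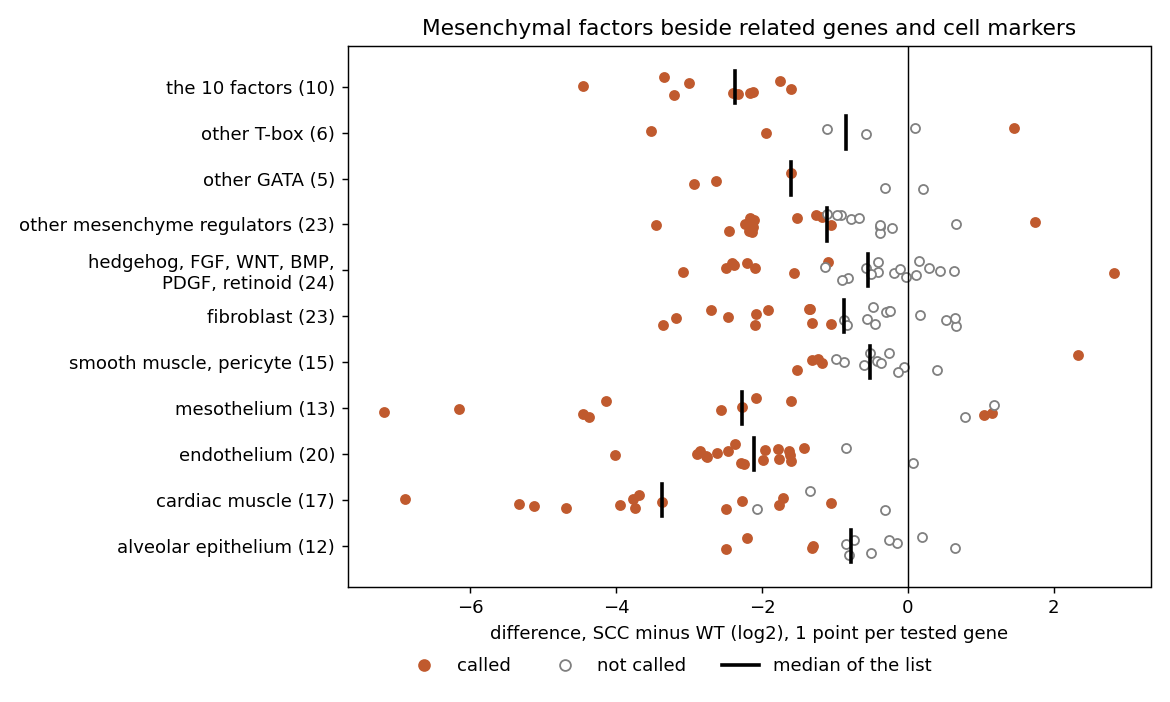
Difference between SCC and WT (log2, SCC minus WT) of each tested gene, 1 row per list with the number of tested genes in brackets, filled orange where called, open grey where not, and a black bar at the median of the list. All 10 factors lie at -1.60 or below, and every other list shown except cardiac muscle includes genes above 0.

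The slides gave a further comparison. The first held WT replicates 1 to 4, the next WT replicate 5 with SCC replicates 1, 2 and 3, and the last SCC replicates 4 and 5. On the slide that held both groups, the 3 SCC arrays were all below WT replicate 5 for 9 of the 10 factors, Gata5 being the exception, and the differences ran from -4.22 (Wt1) to -1.32 (Gata5). With slide as a fixed block, the difference rests on that slide alone, and 7 of the 10 factors were called, those lost being Foxf1, Tcf21 and Gata5.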

How the data were processed

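RNA of 5 WT lungs and 5 lung tumours was labelled with Cy3 and hybridised to 10 Agilent mouse arrays of 1 colour on 3 slides. Groups and replicate numbers came from the sample titles.

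Per the file headers and labels, the authors read the scans with Agilent Feature Extraction 12. For each spot the deposited files give a processed intensity, background-subtracted on a linear scale, the raw median intensity of the spot and its surroundings, and quality flags. A matrix of log2 values, also from the authors, correlated across probes with the values rebuilt here from the scanner files at r of at least 0.9999 on every array. Their methods state quantile normalization, log2 and a one-way analysis of variance. The matrix chose the probe of each gene and was an alternative for the values.

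Without control spots and flagged outliers, the spots of each probe were averaged and 41174 probes were quantile-normalized. The scanner's flag for signal well above background had to be set for a share of 0.5 or more of a probe's spots, on 4 or more of the 5 arrays of a group, which left 30374 probes to test. A flag left 113 probes without a value on some array, and none was saturated. limma 3.58.1 in R 4.3.3 was fitted to all 10 arrays without covariates, two-sided, with p-values adjusted by Benjamini-Hochberg over these probes. Calls needed a 2-fold difference and an adjusted p under 0.05. Single values and relative changes of paralogues were compared with the exact two-sided permutation test (scipy 1.17.1). The number of arrays limits the precision. The fit was tested on simulated data: of 200 probes shifted by 2 log2 units among 30374, 171 were recovered, with 7 false calls.

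Accessions were paired with symbols through RefSeq genes of assembly GRCm38.p6, without versions, for 28223 probes (68.5%). The file headers name an older build, so no probe coordinates are given. Promoter sequences are from RefSeq. Protein sequences of the factors were not used here. Named beside the 10 factors are the called T-box and GATA genes, the 3 called genes with the largest difference in each other list, the 2 brightest genes of marker lists, the 3 nearest genes in pattern of each factor measured on all 10 arrays, and coding neighbours, of which 1 is not reported here. Other genes named were chosen after their values were seen. Members and lists were chosen with earlier results of these data known, so they are no independent support. The alternatives were 75th percentile scaling, normexp on the median spot and background signals (the files hold no mean signal), other filters, slide or replicate number as a block, array weights, the methods' t-test, the second brightest probe, and leaving out arrays.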

Additional observations from a re-analysis of the deposited data

Results flagged for a closer look

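Gaps were looked at in 34 sets of 5 values, and 4 exceeded the 95% critical value of Dixon's ratio for 5 values, 0.71. Chance gives about 1 in 20. All 4 concern SCC replicate 2. Tbx5 was high there, at 11.77 against 10.73 on the next SCC array (gap over range 0.938). Meox2 was high, at 11.33 against 10.10 (0.744). The mean of the alveolar epithelial markers was high, at 14.61 against 14.27 (0.75). The mean of the squamous epithelial markers was low, at 10.66 against 14.35 (0.915).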

How the results depend on the processing

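The 10 factors gave 211 differences under the alternatives, of which 194 kept their direction and their side of the threshold, 17 kept the direction and were no longer called, and 0 changed direction. With slide as a fixed block Foxf1 was at -2.43 (adjusted p = 0.117), Tcf21 at -3.07 (0.0584) and Gata5 at -1.32 (0.589). The second probe of Tbx5 gave -0.13. Gata5 was also not called with 75th percentile scaling (-1.90, adjusted p = 0.0852), without a filter on dim probes (-2.17, adjusted p = 0.0515), with normexp background correction (-0.94, adjusted p = 0.0548) and by the methods' t-test with Benjamini-Hochberg adjustment (-2.17, adjusted p = 0.0614). When 1 array was left out, Gata5 ranged from -2.93 to -1.75 and was called only without SCC replicate 2, and 9 or 10 of the factors were called. The cause of these losses was not tested, except that the fixed block rests on 4 arrays of 1 slide. With only probes well above background on all 10 arrays, 8 factors were tested and 8 called.

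Over the whole array 6954 probes were called, 3969 with normexp, 2989 with slide as a fixed block, 14878 with adjusted p alone, and 6210 to 8095 without 1 array. With slide as a fixed block, calls fell to 1 among other T-box genes, 6 among other mesenchyme regulators, 1 among fibroblast markers and 1 among cardiac markers. With normexp, other mesenchyme regulators had 8. With probes well above background on all 10 arrays, squamous markers had 7, since the others were not tested. Scaling to the 75th percentile moved the median of all probes by 0.12 and the share of higher calls from 43.3% to 53.2%.

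With the replicate number as a replicate block, 10 factors and 6571 probes were called, and Gata5 had an adjusted p of 0.0428. Arrays of the same number did not deviate together (correlations of -0.10 to 0.01), so the numbers were not taken as pairs.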
